A study of Homo sapiens with 6 samples.

Results

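The distal end of the short arm of human chromosome 11, band 11p15.5, was followed in chromatin immunoprecipitation sequencing (ChIP-seq) of the kinase CDK2 and of the poly(ADP-ribose) polymerase PARP1. Its members were the 10 kb windows of chromosome 11 that start below 3.2 Mb in hg19 and hold a mean of at least 10 reads over the 6 libraries. These were 298 of the 320 windows in that stretch, and of 278395 windows that met the same minimum in the whole genome. The imprinted part was taken as the 111 members from 1900001 to 3010000, the stretch set for IGF2, H19, KCNQ1 and CDKN1C. Another 168 members lay between it and the telomere and are called the telomeric part, and 19 lay beyond it. The rule for members uses position and depth only and no comparison between libraries. The region itself was chosen with earlier results of these data known, so its ranks below are not those of a region picked blindly.

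The cells were T47D-MTVL, a T47D human breast cancer line. All groups shared a period in medium with hormone-depleted serum, a day without serum and formaldehyde fixation. The 0 min cells received no hormone, and the 5 and 30 min cells received 10 nM R5020, a synthetic progestin. Each antibody was used at 0, 5 and 30 min on 1 library, so no value below has an error between replicates and every comparison is between 2 libraries, not between conditions. An input library was not analysed here, so a read density is a level of reads and not an enrichment over background.

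Imprinted genes are expressed mainly from the copy inherited from 1 parent. In 11p15.5 they form a pair of neighbouring domains, each with its own control region that is methylated on 1 parental copy. In the first, the growth factor gene IGF2 is active on the paternal copy and the long non-coding RNA H19 on the maternal copy, and the insulator protein CTCF binds the unmethylated control region. In the second, the non-coding RNA KCNQ1OT1 arises within the potassium channel gene KCNQ1 on the paternal copy, while CDKN1C, an inhibitor of cyclin-dependent kinases that include CDK2, is expressed from the maternal copy. PARP1 attaches ADP-ribose chains to proteins, CTCF among them.

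All 32 genes of a list of 11p15.5 genes were found in the RefSeq gene table, whose build is GRCh38.p14. That build differs from hg19, so the table served for names and order only and no window was assigned to a gene. From the telomere inwards the order was SIRT3, the interferon-induced IFITM genes, the GTPase gene HRAS, the mucin genes from MUC6 to MUC5B, the protease gene CTSD, LSP1, TNNT3 and MRPL23. There followed H19, IGF2, INS (insulin), TH (tyrosine hydroxylase), ASCL2, CD81, TSSC4, KCNQ1 with KCNQ1OT1, KCNQ1DN and CDKN1C. SLC22A18 (SLC67A1 in the table), PHLDA2, NAP1L4, CARS1 and OSBPL5 came last. The stretch from H19 to CDKN1C held 29 genes, 12 of them coding for proteins, and the stretch from SCGB1C1 to the gene before H19 held 113 genes, 71 of them coding for proteins.

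Promoter sequences are shown as examples from these 2 stretches. An entry was at hand for 10 of the 29 genes from H19 to CDKN1C and for 82 of the 113 before H19. The values below therefore describe the genes with an entry and not either stretch as a whole. Of the 4 genes that define the imprinted part, H19 had an entry in the RefSeq promoter table (GRCh38.p14); IGF2, KCNQ1 and CDKN1C were the others. The 250 bases before the start of H19 are set beside those of CTSD and HRAS from the telomeric stretch. All 3 lie on the minus strand and are written 5′ to 3′ along the gene, with each CG dinucleotide, the site of DNA methylation, in capitals.
H19: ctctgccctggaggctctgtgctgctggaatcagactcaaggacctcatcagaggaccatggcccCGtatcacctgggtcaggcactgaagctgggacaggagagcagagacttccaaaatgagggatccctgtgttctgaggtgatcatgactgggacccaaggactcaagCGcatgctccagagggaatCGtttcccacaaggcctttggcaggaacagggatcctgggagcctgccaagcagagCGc
CTSD: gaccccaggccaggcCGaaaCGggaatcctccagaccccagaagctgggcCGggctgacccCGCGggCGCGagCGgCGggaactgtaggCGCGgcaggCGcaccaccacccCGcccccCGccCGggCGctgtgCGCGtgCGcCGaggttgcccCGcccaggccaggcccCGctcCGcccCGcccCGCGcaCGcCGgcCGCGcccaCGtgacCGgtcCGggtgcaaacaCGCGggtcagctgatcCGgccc
HRAS: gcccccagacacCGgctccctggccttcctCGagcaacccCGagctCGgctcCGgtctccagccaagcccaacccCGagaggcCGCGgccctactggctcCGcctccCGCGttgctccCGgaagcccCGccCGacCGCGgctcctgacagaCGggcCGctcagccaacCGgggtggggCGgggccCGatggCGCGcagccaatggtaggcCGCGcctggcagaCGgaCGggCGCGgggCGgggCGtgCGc
The H19 sequence held 4 CG dinucleotides, against 36 for CTSD and 32 for HRAS. Both CTSD and HRAS lay above the median of their own stretch, which was 16. Over the 10 genes from H19 to CDKN1C with an entry the median was 5 CG per 250 bases with 64% G and C, over the 82 genes on the telomeric side it was 16 with 68%, and over all 35116 promoters it was 11 with 58%. The hexamer AGAACA, or TGTTCT on the other strand, the half-site that steroid receptors such as the progesterone receptor bind, occurred in 2 of the 10 promoters, H19 among them, in 8 of the 82 (9.76%) and in 12.4% of all promoters. A match describes letters and not a binding site.

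Before hormone 11p15.5 was thinly covered by both antibodies. It held 26817 of the 45111064 CDK2 reads (0.0594%) and 32721 of the 55772389 PARP1 reads (0.0587%). Per window this was 0.555 times the mean of all compared windows for CDK2 and 0.548 times for PARP1. Among 883 consecutive segments of 3.2 Mb the region was the 44th from the lowest for CDK2 and the 45th from the lowest for PARP1. The rest of chromosome 11 stood at 1.17 and 1.18 times the genome mean in the same libraries, so the low level was not that of the whole chromosome. Only 14 of 298 windows for CDK2 and 8 for PARP1 lay above the median window of their library.

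Both antibodies gave nearly the same level in the region before hormone. With each scaled by its library total, CDK2 stood at 1.01 times PARP1. Its 95% interval was 0.971 to 1.06, widened by the spread between neighbouring windows, as all intervals of summed reads below. In the imprinted part the ratio was 1.01 (0.942 to 1.08) and in the telomeric part 1.01 (0.953 to 1.07). Of these 2 parts the imprinted one was denser for both antibodies, with 0.594 times the genome mean for CDK2 against 0.524 in the telomeric part, and 0.590 against 0.519 for PARP1. The 19 windows beyond the imprinted part stood at 0.607 for CDK2 and 0.558 for PARP1, also above the telomeric part.

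Between the libraries before and after R5020 the densities of the 2 antibodies changed differently. PARP1 density went from 0.548 to 0.692 times the genome mean at 5 min and stood at 0.628 at 30 min. CDK2 went from 0.555 to 0.508 at 5 min and to 0.803 at 30 min. PARP1 was thus highest at 5 min and CDK2 at 30 min. The median member window held 106, 141 and 138 PARP1 reads at 0, 5 and 30 min, within ranges of 11 to 218, 26 to 270 and 32 to 326. For CDK2 the medians were 87, 89 and 107 reads, within 17 to 181, 0 to 366 and 3 to 346. These counts, like the read counts of windows, bins and parts below, are not scaled for library depth. The PARP1 medians were 0.582, 0.734 and 0.663 times the median of all compared windows in the same library. For CDK2 these values were 0.584, 0.481 and 0.823, so its scaled median was lowest at 5 min. The ranges of counts overlap at all times. Windows scattered more in the hormone-treated CDK2 libraries. Their coefficient of variation in the region was 71.0% at 5 min and 50.8% at 30 min, against 33.2% at 0 min. PARP1 had 29.9%, 30.0% and 29.1% at 0, 5 and 30 min. The CDK2 rise was not particular to the region. At 0, 5 and 30 min it was 37.4%, 55.5% and 50.4% in the rest of chromosome 11. Over all compared windows it was 89.9%, 108% and 101%.

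**Figure D1:**
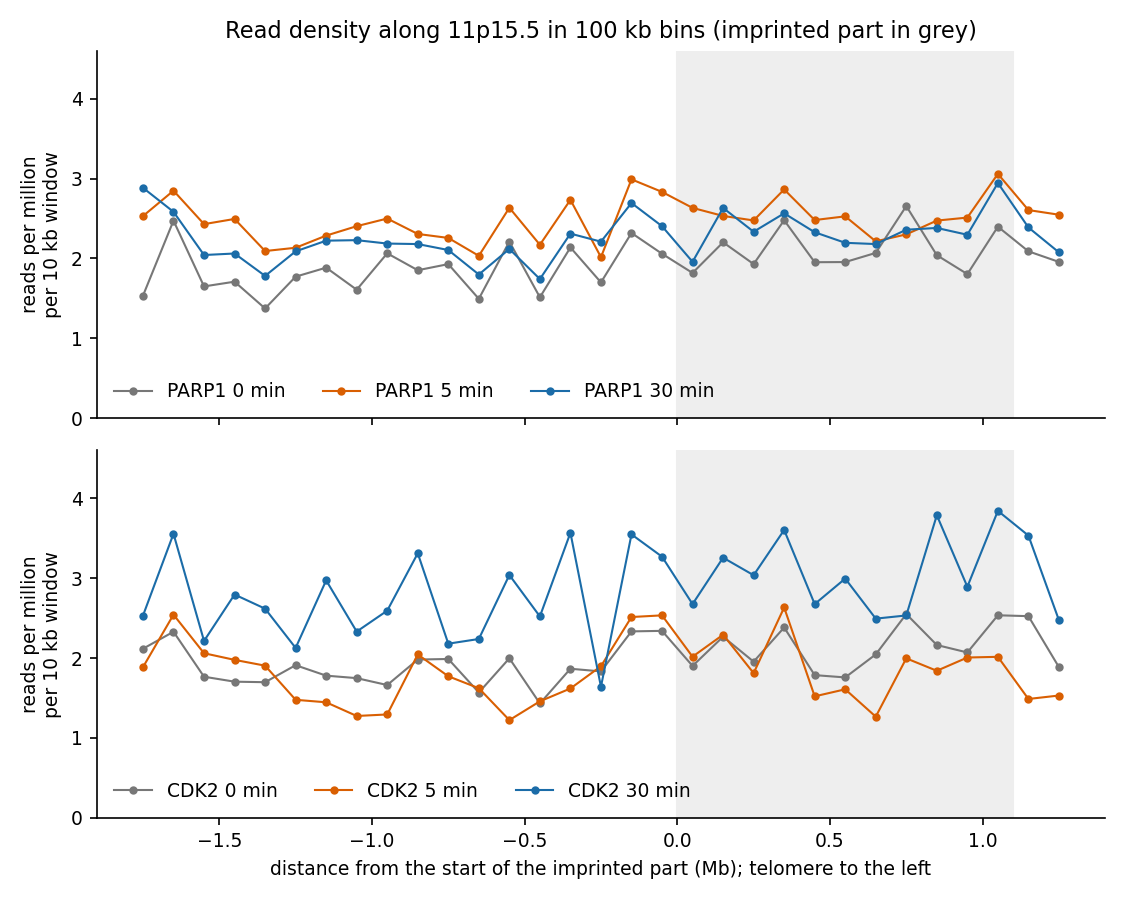
Reads per 1000000 library reads in a 10 kb window (vertical axis) in 31 bins of 100 kb along 11p15.5, by distance in Mb from the start of the imprinted part (grey), for PARP1 (top) and CDK2 (bottom), with 1 line per library. PARP1 at 5 min runs above PARP1 at 0 min in 30 of 31 bins, and CDK2 at 30 min above CDK2 at 0 min in 29.

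PARP1 in 11p15.5 was higher at 5 min than at 0 min. The region held 43290 reads against 32721, a depth-scaled ratio of 1.26 (widened interval 1.21 to 1.32), the 7th highest of 883 segments, whose median was 0.997. The imprinted part had 16574 against 13127 reads and a ratio of 1.20 (1.13 to 1.29). The telomeric part had 23857 against 17470 reads and 1.30 (1.23 to 1.38), and the 19 windows beyond the imprinted part 2859 against 2124 reads and 1.28 (1.09 to 1.51). The ratio of the imprinted to the telomeric part was 0.925 with an interval of 0.847 to 1.01, so the 2 parts could not be separated at this depth. The rest of chromosome 11 had a ratio of 1.01, and set against it the region was 1.25 times higher (1.20 to 1.30).

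The higher PARP1 level was spread over most bins of the region. Of 31 bins of 100 kb, 30 had a ratio above 1, against 47.8% of 28053 such bins in the genome, and the widened interval lay above 1 in 16, against 9.83%. In 0 bins did it lie below 1, against 8.26%, and the ratio was below 1 in 1 bin, against 52.2%. The ratio was above 1 in all 18 telomeric bins and in 10 of the 11 imprinted bins. The highest full bin was 500001 to 600000, with 1224 against 766 reads and 1.52 (1.18 to 1.97). The bin 100001 to 200000 reached 1.65 (0.967 to 2.82), but only 2 of its windows met the minimum. The lowest was 2600001 to 2700000 in the imprinted part, with 1346 against 1481 reads and 0.867 (0.695 to 1.08), followed by its neighbour 2500001 to 2600000 with 1.07 (0.848 to 1.35).

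Single windows were called at ratios of 2 and above or 0.5 and below, where also an exact binomial test of the 2 counts, adjusted by Benjamini-Hochberg over all compared windows, fell below 0.05. For PARP1 at 5 min 23 members were called higher, 7.72%, against 0.893% of all windows, and 0 were called lower, against 1.73%. Of the 23, 7 lay in the imprinted and 15 in the telomeric part. The median ratio over the 298 members was 1.26, against 0.991 over all windows. Shares over all windows, here and below, were not matched for depth, and the region lay below the genome mean in all 6 libraries. Whether its lower depth raises the shares of calls was not tested.

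The window 610001 to 620000 held 57, 181 and 97 PARP1 reads at 0, 5 and 30 min and 91, 21 and 63 CDK2 reads. Its PARP1 ratio at 5 min was 3.03 (95% interval from counting alone 2.24 to 4.15), while CDK2 was lowest there at 5 min. The window 310001 to 320000 held 61, 188 and 98 PARP1 reads, a ratio of 2.94 (2.19 to 3.99) at 5 min, with 71, 172 and 94 for CDK2. Both proteins peaked there at 5 min. In the imprinted part the foremost window was 1960001 to 1970000, with 66, 200 and 138 PARP1 reads and a ratio of 2.89 (2.18 to 3.88), where CDK2 went from 135 to 125 and 74 reads. Read counts of windows scatter more than counting alone gives, by a factor called the dispersion. When both counts were first divided by it, the intervals widened to 1.39 to 7.32, 1.38 to 6.89 and 1.39 to 6.53, and no member was called in any of the 9 comparisons of libraries. Higher calls in the genome were then 0.000359% of windows for PARP1 at 5 against 0 min, 0.00216% for PARP1 at 30 against 0 min and 0.00431%, 0.00251% and 0.00251% for CDK2 against PARP1 at 0, 5 and 30 min. Lower calls reached at most 0.000718%, for CDK2 against PARP1 at 30 min. The single windows named here are therefore descriptions of these libraries.

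At 30 min PARP1 remained above 0 min but below 5 min. The region held 42609 reads, a ratio to 0 min of 1.14 (1.10 to 1.19), the 11th highest of 883 segments, and a ratio to 5 min of 0.907 (0.870 to 0.947), the 6th lowest. The imprinted part stood at 1.12 (1.06 to 1.20) and the telomeric part at 1.17 (1.11 to 1.23) against 0 min, with 0.964 (0.889 to 1.05) between them. Against 5 min the values were 0.934 (0.872 to 0.999) and 0.895 (0.846 to 0.948). The 2 comparisons with 0 min share that library, so their likeness is no second measurement. Against the rest of chromosome 11 the region had 1.14 (1.10 to 1.19) at 30 over 0 min and 0.912 (0.874 to 0.951) at 30 over 5 min.

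Of the 31 bins, 29 had a PARP1 ratio above 1 at 30 min, against 48.7% in the genome, and 6 an interval above 1, against 5.94%. In 0 bins did the interval lie below 1, against 5.54%. The highest full bin was 800001 to 900000, with 1414 against 897 reads and 1.39 (1.11 to 1.73). The 2-window bin 100001 to 200000 had 366 against 171 reads and 1.88 (1.17 to 3.03). The lowest were again 2600001 to 2700000, with 0.889 (0.731 to 1.08), and 1300001 to 1400000, with 0.958 (0.777 to 1.18). Between 30 and 5 min 27 bins had a ratio below 1, against 49.5% in the genome.

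Fewer single windows separated the PARP1 libraries at 30 min. Against 0 min 9 members were called higher (3.02%, against 0.406% of all windows) and 0 lower (against 0.587%). Against 5 min 3 were higher (1.01%, against 1.3%) and 10 lower (3.36%, against 0.8%). The window 1020001 to 1030000 held 61, 75 and 180 PARP1 reads at 0, 5 and 30 min, a ratio of 2.59 (1.93 to 3.53) at 30 min, and 61, 180 and 129 CDK2 reads. PARP1 was high there at 30 min only. In the imprinted part the foremost windows were 2120001 to 2130000, with 85, 208 and 205 PARP1 reads and 2.12 (1.64 to 2.76), and 2830001 to 2840000, with 93, 158 and 218 reads and 2.06 (1.61 to 2.66). In the first of these PARP1 was already high at 5 min.

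CDK2 in 11p15.5 was higher at 30 min than at 0 min, by more than PARP1. The region held 34470 against 26817 reads, a ratio of 1.45 (1.36 to 1.54), the 5th highest of 883 segments, whose median was 0.991. The imprinted part had 13678 against 10688 reads and 1.44 (1.31 to 1.59). The telomeric part had 18509 against 14262 reads and 1.46 (1.34 to 1.59). Their ratio to each other was 0.986 (0.868 to 1.12), which leaves room for a difference of that size in either direction. The rest of chromosome 11 had 1.01 (0.998 to 1.01), and set against it the region was 1.44 times higher (1.35 to 1.53).

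The CDK2 ratio at 30 min was above 1 in 29 of 31 bins, against 46.6% in the genome, and its interval lay above 1 in 20, against 8.98%. These 20 included 8 of the 11 imprinted bins. The highest bins were the neighbours 1500001 to 1600000, with 1431 against 842 reads and 1.91 (1.40 to 2.62), and 1400001 to 1500000, with 1011 against 646 reads and 1.76 (1.22 to 2.54). The lowest was the next one inwards, 1600001 to 1700000, with 658 against 827 reads and 0.895 (0.589 to 1.36). It was followed by 2600001 to 2700000, with 1016 against 1151 reads and 0.993 (0.707 to 1.40).

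**Figure D2:**
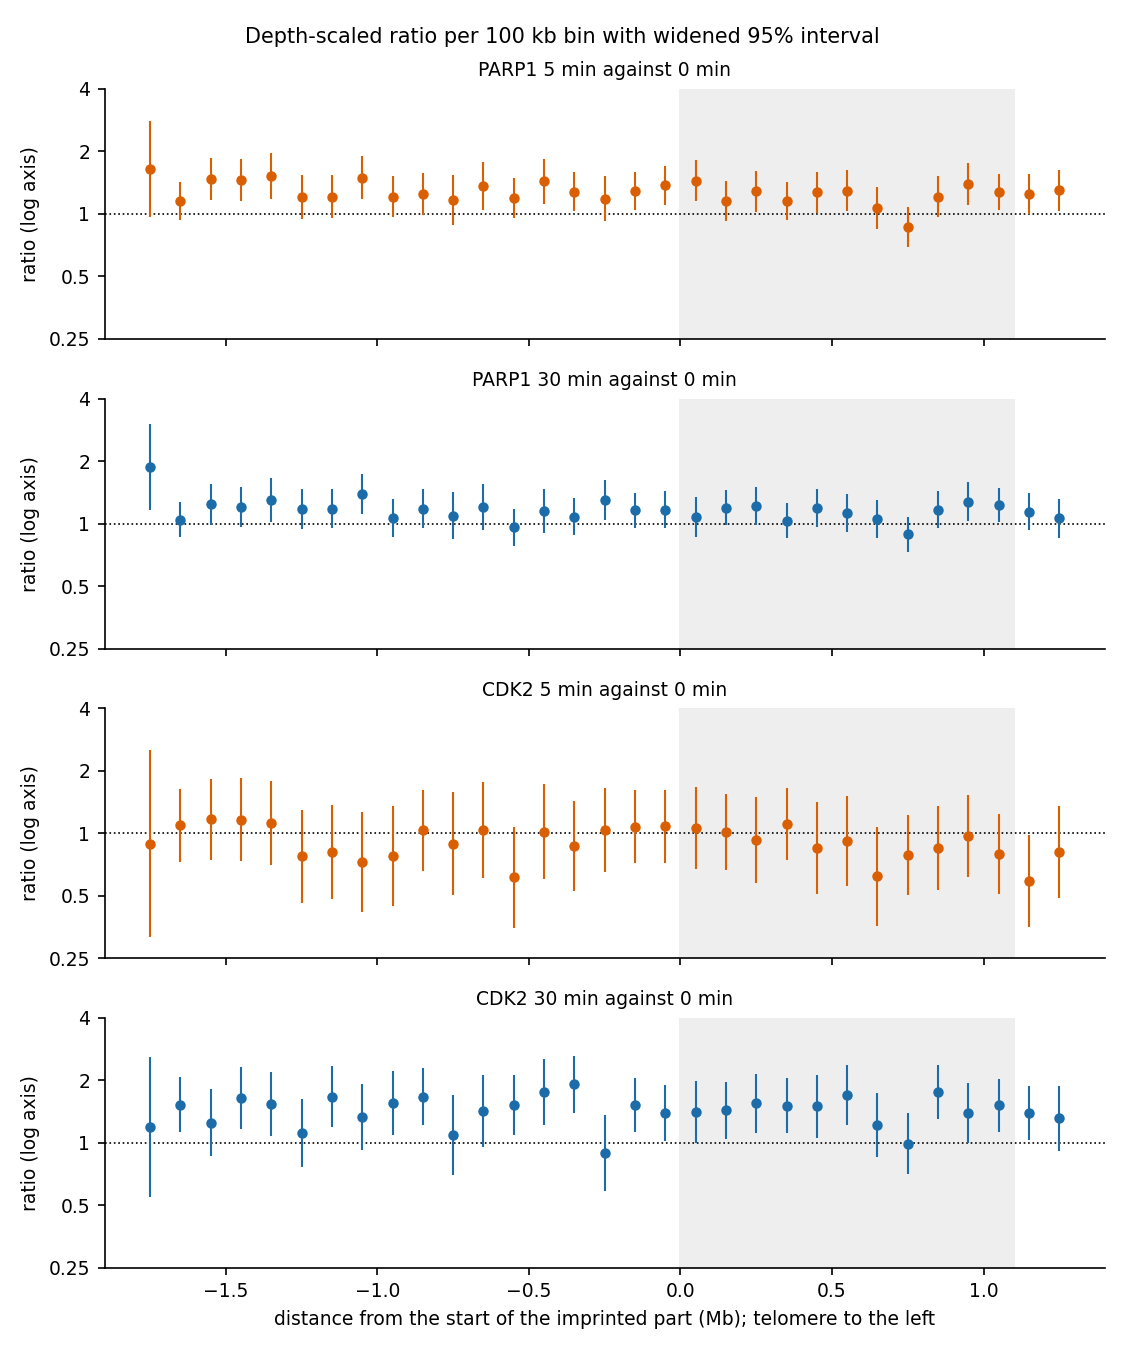
Depth-scaled ratio to 0 min (vertical log axis) per 100 kb bin, by distance in Mb from the start of the imprinted part (grey), for PARP1 and CDK2 at 5 and 30 min. Points are ratios and bars widened 95% intervals, which are broadest for CDK2 at 5 min. In the grey part the bin 0.7 to 0.8 Mb from its start lies lowest for PARP1 at both times.

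Among single windows 73 members were called higher for CDK2 at 30 min (24.5%, against 5.46% of all windows) and 15 lower (5.03%, against 11.5%). In the genome lower calls outnumbered higher ones, and in 11p15.5 the reverse held. Of the 73, 28 lay in the imprinted and 41 in the telomeric part. The median member ratio was 1.33, against 0.962 over all windows.

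The window 1530001 to 1540000 held 70, 30 and 283 CDK2 reads at 0, 5 and 30 min and 147, 216 and 175 PARP1 reads. Its CDK2 ratio at 30 min was 4.55 (3.49 to 5.997). In the imprinted part 2820001 to 2830000 held 69, 62 and 272 CDK2 reads, a ratio of 4.43 (3.39 to 5.86), and 103, 196 and 140 PARP1 reads. CDK2 was high in both windows at 30 min only. The window 540001 to 550000 held 44, 103 and 174 CDK2 reads and 4.45 (3.18 to 6.34).

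The lower windows at 30 min included 1980001 to 1990000 in the imprinted part, with 61, 108 and 3 CDK2 reads and a ratio of 0.0553 (0.0111 to 0.170). PARP1 held 63, 137 and 84 reads there, so the window was not empty in general. The others named were 940001 to 950000, with 97, 53 and 16 CDK2 reads (0.186, 0.102 to 0.317), and 1290001 to 1300000, with 111, 35 and 24 (0.243, 0.150 to 0.381). With the dispersion of the comparison their upper bounds were 1.79, 1.37 and 1.36.

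CDK2 at 5 min was slightly lower in the region than at 0 min. It held 31431 against 26817 reads, a ratio of 0.915 (0.839 to 0.997), with 0.890 (0.775 to 1.02) in the imprinted part and 0.960 (0.855 to 1.08) in the telomeric part. When libraries were scaled on their 25% least covered windows the ratio of the region turned to 1.16, and with TMM factors it was 0.956 with an interval that holds 1, so its direction in absolute terms is not settled. Its order among segments does not depend on scaling, and it was the 22nd lowest of 883. Against the rest of chromosome 11, free of scaling, it was 0.926 (0.849 to 1.01). In 13 of 31 bins the ratio was above 1, against 48.5% in the genome, and in 0 the interval lay above 1, against 2.29%. In 1 bin it lay below 1, against 1.5%, namely 3000001 to 3100000 with 0.589 (0.355 to 0.979). The next lowest was 1300001 to 1400000, with 707 against 901 reads and 0.612 (0.349 to 1.07). The highest were the neighbours 300001 to 400000, with 1.17 (0.742 to 1.83), and 400001 to 500000, with 1.16 (0.732 to 1.84).

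Single windows were many but uncertain at this time. For CDK2 at 5 min 22 members were called higher (7.38%, against 6.21% of all windows) and 86 lower (28.9%, against 16.2%). When scaled on the least covered windows the higher ones were 47.2% of the calls, against 20.4% with library totals. In this library 13 members held 0 reads (4.36%, against 1.43% of all windows), and in none of the other 5 libraries did a member hold 0. These 13 windows held 30 to 110 CDK2 reads at 0 min and 29 to 225 at 30 min. The foremost was 2520001 to 2530000 in the imprinted part, with 110, 0 and 108 CDK2 reads at 0, 5 and 30 min and 102, 118 and 175 PARP1 reads. Set against a floor of 3 reads, CDK2 was 47.0-fold lower there at 5 min, a value that leaves out the counting error of the 110 reads. The upper bound of its ratio was 0.0266 from counting alone, which takes reads as independent. With the dispersion of the comparison that upper bound was 0.996. Next came 750001 to 760000 with 100, 0 and 60 CDK2 reads and 400001 to 410000 with 88, 0 and 111. With the dispersion their upper bounds were 1.15 and 1.40.

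The windows highest for CDK2 at 5 min were 1260001 to 1270000, with 17, 156 and 10 CDK2 reads (ratio 7.16, 4.33 to 12.6), and 490001 to 500000, with 49, 248 and 72 (3.95, 2.90 to 5.48). Then 620001 to 630000 held 47, 195 and 16 (3.24, 2.34 to 4.55). All 3 lay in the telomeric part. Between 30 and 5 min CDK2 was higher at 30 min by 1.58 (1.44 to 1.74) in the region, 1.62 (1.39 to 1.88) in the imprinted part and 1.52 (1.34 to 1.73) in the telomeric part. There 130 members were called higher (43.6%, against 18.4% of all windows) and 25 lower (8.39%, against 15.1%).

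**Figure D3:**
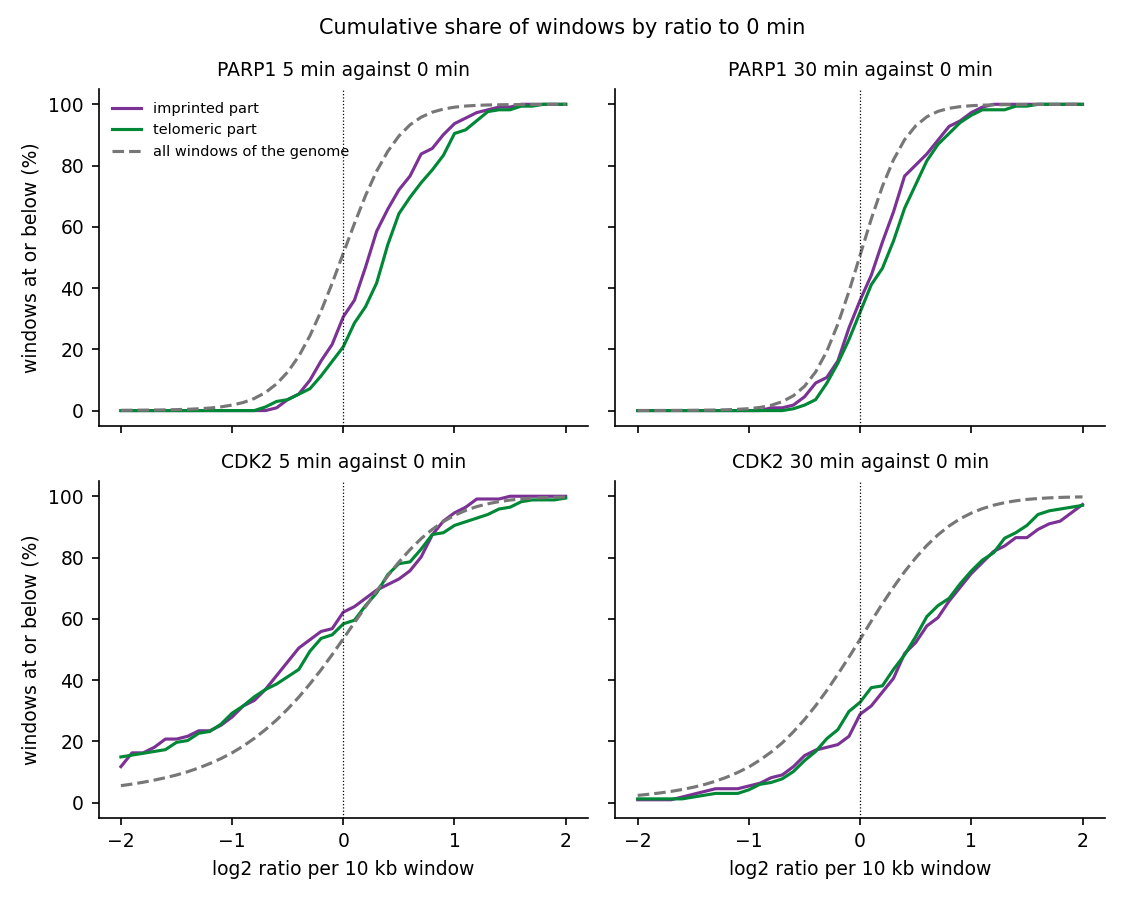
Cumulative percentage of 10 kb windows (vertical axis) at or below a given log2 ratio to 0 min (horizontal axis), for the imprinted part (111 windows), the telomeric part (168 windows) and all 278395 compared windows. Curves of both parts lie to the right of the genome for PARP1 at 5 and 30 min and for CDK2 at 30 min. For CDK2 at 5 min they start above it, with more windows at low ratios, and then cross it. At a log2 ratio of 0.6 they reach 75.7% (imprinted) and 78.6% (telomeric), against 82.6% in the genome.

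Set against each other, the antibodies differed in the region after hormone. The ratio of CDK2 to PARP1, which also holds their different yields, was 0.735 (0.674 to 0.801) at 5 min and 1.28 (1.21 to 1.36) at 30 min, after 1.01 at 0 min. It was the 7th lowest of 883 segments at 5 min and the 4th highest at 30 min. The first 3.2 Mb of chromosomes 16 and 19, compared further below, had 0.725 and 0.730 at 5 min and 1.28 and 1.29 at 30 min. Those of chromosome 4 had 0.810 and 1.14. Intervals of the region against the ends of chromosomes 16 and 19 held 1 at both times. The imprinted part had 0.744 (0.648 to 0.854) and 1.29 (1.17 to 1.42), and the telomeric part 0.744 (0.663 to 0.835) and 1.26 (1.17 to 1.37). At 5 min CDK2 lay below PARP1 in all 31 bins, against 51% of bins in the genome, although scaling on the least covered windows put 10 bins above, against 80.9% of bins in the genome. At 30 min it lay above in 29 bins, against 47.6%.

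At 0 min 3 members were called higher (1.01%, against 0.442% of all windows) and 8 lower (2.68%, against 0.733%) for CDK2 than for PARP1. Both shares lay above those of the genome, while the ratio of the region was 1.01 (0.971 to 1.06). Of the 8, 6 lay in the imprinted part (5.41% of its windows) and 2 in the telomeric part (1.19%). At 5 min 8 were higher (2.68%, against 8.02%) and 109 lower (36.6%, against 17%). At 30 min 49 were higher (16.4%, against 3.84%) and 20 lower (6.71%, against 10.3%).

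Some windows were called for both proteins. At 5 min 2 members were called higher for both (0.671%, against 0.092% of all windows), 8.70% of the 23 called for PARP1 and 1.85% of the 108 called for CDK2. Another 7 were higher for PARP1 and lower for CDK2 (2.35%, against 0.241%). As a share of the windows called higher for PARP1, those higher for both were 8.70% in the region and 10.3% in the genome, and those lower for CDK2 30.4% and 27.0%, so at 5 min the region lay close to the genome on this scale. The 2 were 490001 to 500000, with 75 and 182 PARP1 reads and 49 and 248 CDK2 reads at 0 and 5 min, and 1660001 to 1670000, with 64 and 149 PARP1 reads and 101 and 281 CDK2 reads. At 30 min 3 were higher for both (1.01%, against 0.0621%), 33.3% of the 9 called for PARP1, against 15.3% of the higher PARP1 calls in the genome, and 3.41% of the 88 called for CDK2. Of all 298 members 24.5% were called higher for CDK2 at 30 min, a closer measure for these 3 of 9 windows. There 1 was higher for PARP1 and lower for CDK2 (0.336%, against 0.0679%). The 3 higher for both were 1020001 to 1030000, given above, and 2 windows of the imprinted part.

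The first of these, 2120001 to 2130000, held 89, 191 and 198 CDK2 reads at 0, 5 and 30 min beside its 85, 208 and 205 PARP1 reads. The CDK2 ratio at 30 min was 2.50 (1.94 to 3.25). The second, 2410001 to 2420000, held 57, 88 and 203 CDK2 reads (4.01, 2.97 to 5.47) and 62, 164 and 153 PARP1 reads (2.17, 1.60 to 2.96). Both windows were picked for their 30 min calls. Across the 31 bins, which share their libraries, the Spearman correlation of the CDK2 and PARP1 ratios was 0.34 at 5 min and -0.13 at 30 min. Across the 298 windows it was 0.033 and 0.067, and across all 278395 windows -0.031 and 0.15.

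The bin 2600001 to 2700000 in the imprinted part had the lowest PARP1 ratio of the 31 bins at 5 and 30 min. The widened intervals of its ratios to 0 min all held 1, for both antibodies and times. At 0 min it held the most reads of the 31 bins for both antibodies, with 1151 for CDK2 and 1481 for PARP1. For CDK2 the lead was slight, as 2900001 to 3000000 held 1144 and 3000001 to 3100000 held 1139. After hormone it ranked 11th and 21st for CDK2 at 5 and 30 min, and 23rd and 10th for PARP1. Of its 10 windows, 8 had a PARP1 ratio below 1 at 5 min, against 51.4% of all windows, and 8 at 30 min, against 50.7%. For CDK2 7 were below 1 at 5 min, against 53.5%, and 6 at 30 min, against 53.3%. For CDK2 3 of the 10 were called lower at 5 min, against 16.2% of all windows, and at 30 min 2 were called lower and 2 higher, against 11.5% and 5.46%. The window 2660001 to 2670000 held 140, 332 and 59 CDK2 reads at 0, 5 and 30 min and 142, 98 and 117 PARP1 reads. The bin was singled out by its rank, so the counts of its windows below 1 are no separate evidence. Since the 0 min library sets both its level and its ratio, a high level there goes with a low ratio. Without it the ratio of the imprinted to the telomeric part was 0.9575 (0.875 to 1.05) for PARP1 at 5 min.

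The densest single members were the neighbours 1760001 to 1770000 and 1750001 to 1760000, and the window 190001 to 200000. The first held 159, 160 and 332 CDK2 and 160, 234 and 270 PARP1 reads at 0, 5 and 30 min, and the second 129, 134 and 346 CDK2 and 208, 203 and 232 PARP1 reads. In both CDK2 was high at 30 min only. The third held 173, 216 and 189 CDK2 and 159, 270 and 326 PARP1 reads. These counts are not scaled. When scaled by library totals, CDK2 in the third was highest at 30 min and slightly lower at 5 than at 0 min. PARP1 there was highest at 30 min and lowest at 0 min, scaled or not. All 3 windows lay in the telomeric part. So did the least covered, 180001 to 190000, 1160001 to 1170000 and 1680001 to 1690000, with 12, 11 and 37 PARP1 reads at 0 min. The window 180001 to 190000, with a mean of 18.7 reads, was the first inside the minimum, and 170001 to 180000, with a mean of 2.17, the last outside it.

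Other chromosome ends of the same length served for comparison, namely the first 3.2 Mb of chromosomes 4, 16 and 19. At 0 min their CDK2 density was 0.932, 0.741 and 0.496 times the genome mean, so 11p15.5 lay between the ends of 16 and 19. For PARP1 at 5 min they had ratios of 1.15 (1.11 to 1.19), 1.29 (1.25 to 1.34) and 1.29 (1.23 to 1.35). The 11p15.5 ratio was 1.10 times that of chromosome 4 (1.04 to 1.15), 0.975 times that of chromosome 16 (0.923 to 1.03) and 0.980 times that of chromosome 19 (0.922 to 1.04).

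For CDK2 at 30 min their ratios were 1.22 (1.16 to 1.28), 1.478 (1.40 to 1.56) and 1.47 (1.38 to 1.57). The 11p15.5 ratio was 1.19 times that of chromosome 4 (1.10 to 1.29), 0.978 times that of chromosome 16 (0.903 to 1.06) and 0.984 times that of chromosome 19 (0.900 to 1.08). At CDK2 5 min the 3 ends had 0.925, 0.921 and 0.908, and all 3 intervals of their difference from 11p15.5 held 1. For PARP1 at 30 min the 11p15.5 ratio was 1.06 times that of chromosome 4 (1.01 to 1.11). It was 0.972 times that of chromosome 16 (0.924 to 1.02) and 0.974 times that of chromosome 19 (0.921 to 1.03). The region thus separated from the end of chromosome 4 for PARP1 at 5 and 30 min and for CDK2 at 30 min. In none of these comparisons did it separate from the ends of chromosomes 16 and 19, within the intervals given.

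**Figure D4:**
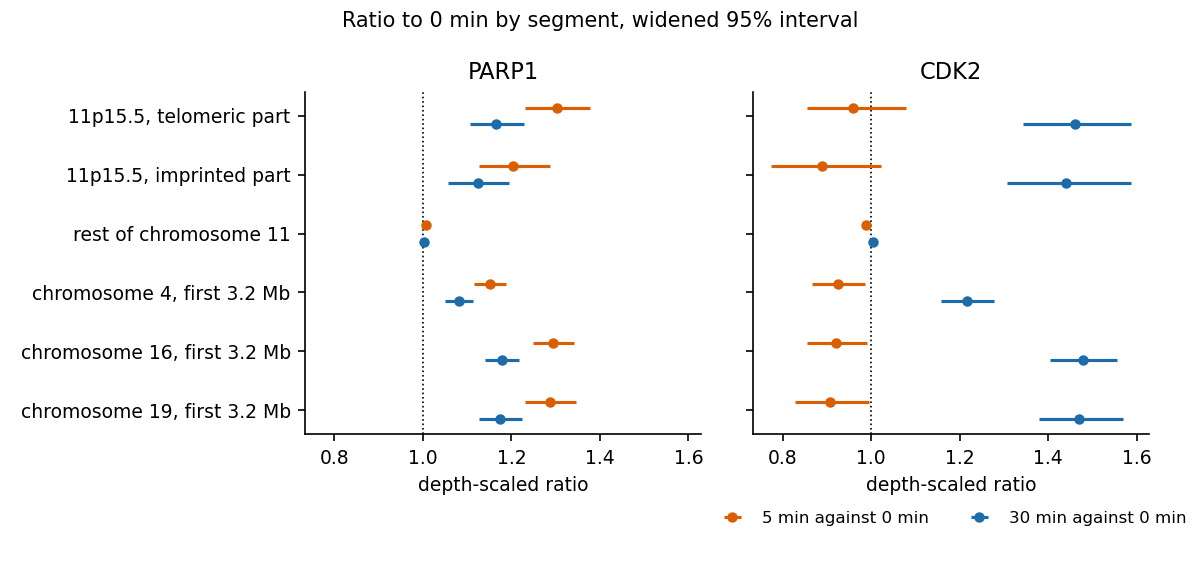
Depth-scaled ratio to 0 min (horizontal axis) of PARP1 (left) and CDK2 (right) in both parts of 11p15.5, in the rest of chromosome 11 and in the first 3.2 Mb of chromosomes 4, 16 and 19. Points are ratios at 5 and 30 min and bars widened 95% intervals. The rest of chromosome 11 lies close to 1, while 11p15.5 has 1.20 and 1.30 for PARP1 at 5 min and 1.44 and 1.46 for CDK2 at 30 min.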

How the data were processed

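Per the file header and the labels, the authors deposited whole-number read counts for adjoining 10 kb windows, with 1 column for each of 6 libraries and no normalization. Bowtie 1.0.0 and hg19 (GRCh37) are named in the submitters' processing notes. The handling of duplicate reads and of reads with several matches: not given in the sources used here. Library totals lay between 40097131 and 63448449 reads. Groups were read from the sample titles. The region, its parts, the gene list and the tests were chosen with earlier results of these data known.

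Windows with a mean of at least 10 counts were compared, and counts were scaled by library totals. For summed reads, the 95% interval of a ratio was widened by a dispersion per library, the robust variance of differences between neighbouring windows over its Poisson expectation. For the CDK2 libraries, in order of time, it came to 7.43, 52.2 and 24.0. The PARP1 libraries had 6.11, 11.4 and 8.62. It covers scatter between windows and no spread between cultures. Intervals of single windows cover counting error only unless a dispersion is named. That of a comparison is the robust variance around the ratio of 20 windows on each side, and was 6.41 for PARP1 and 24.5 for CDK2 at 5 against 0 min, and 4.75 and 14.4 at 30 against 0 min. Windows named are, per comparison with 0 min, the up to 3 higher and 3 lower calls whose interval bound lay farthest from 1, at most 1 per 50 kb, those called alike for both antibodies, and the 3 of highest and lowest mean scaled by library totals. Bins named are the 2 highest and 2 lowest per comparison with 0 min. The window 2660001 to 2670000 was chosen after its values were seen. The call was tested on simulated counts with counting error only, so that test says nothing on false calls at the dispersions given above. Alternatives were TMM factors from edgeR 4.0.16, size factors from DESeq2 1.42.0, both for scaling only, scaling on windows of low mean, other minimums, leaving out the densest windows, a fold limit of 1.5 and division by the dispersion. Tools were R 4.3.3 and, under Python 3.11.15, pandas 2.3.3, scipy 1.17.1, matplotlib 3.10.9 and numpy 2.4.6. The 22 windows left out were 18 at the telomere and 4 from 1170001 to 1210000, 16 of them with 0 reads in all libraries.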

Additional observations from a re-analysis of the deposited data

Results flagged for a closer look

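The CDK2 and PARP1 changes in 11p15.5 differed from each other at both times. From 0 to 5 min the CDK2 ratio was 0.725 times the PARP1 ratio (widened interval 0.659 to 0.798), with 0.915 against 1.26. From 0 to 30 min it was 1.26 times the PARP1 ratio (1.18 to 1.36), with 1.45 against 1.14. Within an antibody the times differed as well. CDK2 at 30 min was 1.58 times its level at 5 min (1.44 to 1.74), and PARP1 at 30 min was 0.907 times its level at 5 min (0.870 to 0.947). Each value compares single libraries. The dispersions of the libraries, 52.2 for CDK2 at 5 min against 6.11 to 24.0 for the other 5, move with the first and the third value, and their part in them was not tested. These differences were not particular to 11p15.5. The first 3.2 Mb of chromosome 16 had 0.921 for CDK2 against 1.29 for PARP1 at 5 min, and 1.478 against 1.18 at 30 min. Those of chromosome 19 had 0.908 against 1.29, and 1.47 against 1.17. The end of chromosome 4 had 0.925 against 1.15, and 1.22 against 1.08.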

How the results depend on the processing

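The region ratios kept their side of 1 and of the threshold under all 3 scalings, both other minimums and without the 1% densest windows, except for CDK2 at 5 against 0 min. Against its 0.915 that ratio was 0.956 with TMM factors, 0.959 with DESeq2 size factors and 0.918 with a minimum mean of 50, each with an interval that holds 1, and 1.16 when scaled on the 25% least covered windows. This scaling moves the log2 ratios of all windows by 0.35 for CDK2 at 5 against 0 min, by 0.12 at 30 against 0 min, by -0.22 at 30 against 5 min and by 0.31 for CDK2 against PARP1 at 5 min. By this construction it gave 24 instead of 13 of 31 bins above 1 for CDK2 at 5 min, where the genome went from 48.5% to 89.3%, and 10 instead of 0 for CDK2 against PARP1 at 5 min, where it went from 49% to 80.9%. Ratios of the region to the rest of chromosome 11 and to other ends kept their side in all alternatives run for them. The ratio of the imprinted to the telomeric part, whose interval held 1 in all 9 comparisons, turned from 0.986 to 1.02 for CDK2 at 30 against 0 min without the bin starting at 2.6 Mb, and from 0.997 to 1.00 for CDK2 against PARP1 at 0 min without that bin and with a minimum mean of 50. Leaving out that bin was chosen after seeing the data.

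After division by the dispersion 0 members were called in all 9 comparisons, and between 0 and 0.00431% of all windows in either direction. This alternative lowers the counts by construction. With a fold limit of 1.5 PARP1 calls were 89 instead of 23 at 5 against 0 min (81 higher and 8 lower, 29.9% of members against 15.8% of all windows), 55 instead of 9 at 30 against 0 min (52 and 3, 18.5% against 9.06%) and 69 instead of 13 at 30 against 5 min (20 and 49, 23.2% against 12.9%). CDK2 calls were 181 instead of 108 at 5 against 0 min (63 and 118, 60.7% against 45.2%) and 158 instead of 88 at 30 against 0 min (122 and 36, 53.0% against 39.7%). For CDK2 against PARP1 they were 37 instead of 11 at 0 min (16 and 21, 12.4% against 9.15%), 184 instead of 117 at 5 min (32 and 152, 61.7% against 48.2%) and 138 instead of 69 at 30 min (94 and 44, 46.3% against 35.8%). For CDK2 against PARP1 at 5 min, scaling on the least covered windows made 20.9% instead of 6.84% of the calls higher ones. No paired analysis was possible because each antibody and time has 1 library.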

Other observations

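Across the 298 windows of 11p15.5 the libraries resembled each other less than across the genome. The Spearman correlation of counts was 0.56 between CDK2 and PARP1 at 0 min in the region and 0.86 over all 278395 windows, and 0.14 and 0.42 between CDK2 at 5 and 30 min. These are descriptions over windows that share their libraries, and the region covers a narrower range of depth.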
